A study of Homo sapiens with 30 samples.

Results

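The human mitochondrial chromosome carries 37 genes, and all of them have a row among the 60675 gene rows of the deposited count table. The rule took every gene whose symbol begins with MT- and used no measured value. They comprise 13 mRNAs, 2 ribosomal RNAs and 22 transfer RNAs. Low counts were filtered by treatment group, and 15 of the 37 passed: the 13 mRNAs and both ribosomal RNAs. None of the 22 transfer RNAs passed.

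The cells were A549, an established line from a human lung adenocarcinoma, and every sample was exposed for 24 h. The extracts were ethanol extracts of the herbal formulas Sibjeondaebo-tang, Palmul-tang, Samul-tang and Sagunja-tang, each at a low (20 µg/mL), medium (100 µg/mL) and high (500 µg/mL) dose. With the vehicle group, labelled 0.1% DMSO, this gave 13 groups and 30 libraries. Vehicle and each dose of Sibjeondaebo-tang and Palmul-tang had 3 libraries, each dose of Samul-tang had 2, and each dose of Sagunja-tang had 1. The series text gives the vehicle as 2% DMSO instead, and the labels do not say whether replicates came from separate cultures, so p-values measure only the spread between these libraries. Sagunja-tang values carry no test.

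Mitochondrial DNA is transcribed from both strands as long RNAs that are cut into mRNAs, ribosomal RNAs and transfer RNAs, often at the transfer RNAs that lie between the other genes. The mRNAs encode core subunits of respiratory complexes I, III, IV and V, which pump protons and make ATP. All other subunits of these complexes, all of complex II and the proteins that copy, transcribe and translate mitochondrial DNA come from nuclear genes. A level in bulk RNA does not separate more mitochondrial RNA per cell from more mitochondria or from less RNA of other kinds.

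Libraries held 23986637 to 35159898 counts. The epithelial markers EPCAM, KRT8, KRT18, KRT19 and CDH1 were all expressed, with KRT8 at a median of 3606 CPM (counts scaled to a common library size). Defining markers of leukocytes (PTPRC, CD3E), fibroblasts (COL1A2, PDGFRB) and endothelium (CDH5, VWF) reached at most 0.298 CPM in any library. Other genes of the same marker lists were expressed in all 30: CD68 at 12.7 to 27.0 CPM, CD14 at 1.96 to 3.29, DCN at 4.12 to 6.89, COL1A1 at 1.04 to 2.60, PECAM1 at 0.0937 to 0.433 and KDR at 16.9 to 21.5, against 17.6 to 24.3 for EPCAM.

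A set of 8 libraries stood apart from the other 22. Counts in 6 rows over ribosomal DNA on chromosome 21 summed to 3464 to 4091 CPM in the 8 and to 715 to 1423 CPM in the 22. These 8 were the 3 vehicle libraries, the 3 Samul-tang libraries of replicate 2, and Sagunja-tang at the high and medium dose. They are also the first 8 samples in the order of deposition. The titles of all 30 samples carry the same batch letter, E. All Sibjeondaebo-tang and Palmul-tang libraries belonged to the 22, so their dose comparisons lie within one set, whereas every comparison of them with vehicle crosses the sets.

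The chromosome is compact, and 3 features of its sequence bear on what a short read can count. Some genes overlap. MT-ATP8 (chrM:8366-8572 in GRCh38, GENCODE release 29, plus strand, a single exon without an intron) shares its last 46 bases with the start of MT-ATP6 (chrM:8527-9207). In the sequences here, from the GENCODE transcripts, the shared bases are in capitals.

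MT-ATP8, bases 1 to 207: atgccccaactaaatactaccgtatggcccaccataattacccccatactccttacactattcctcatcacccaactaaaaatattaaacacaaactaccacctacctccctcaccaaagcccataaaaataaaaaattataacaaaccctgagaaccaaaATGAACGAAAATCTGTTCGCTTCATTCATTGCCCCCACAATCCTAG

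MT-ATP6, bases 1 to 90: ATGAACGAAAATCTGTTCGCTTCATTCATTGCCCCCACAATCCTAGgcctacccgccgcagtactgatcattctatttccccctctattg

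The overlap is 22.2% of MT-ATP8, and reads were 100 bases long. MT-ND4L (chrM:10470-10766) and MT-ND4 (chrM:10760-12137) share 7 bases, shown in capitals at the end of the first and the start of the second.

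MT-ND4L, bases 258 to 297: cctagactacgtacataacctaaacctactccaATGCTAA

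MT-ND4, bases 1 to 40: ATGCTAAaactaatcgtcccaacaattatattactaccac

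Nuclear chromosomes also carry old copies of mitochondrial sequence. In a run of copies on chromosome 1, 6 passed the filter, led by MTATP6P1 (chr1:633696-634376) with a mean of 48657 counts per library. It has the same 681 bases as MT-ATP6 apart from 10 mismatches, and its longest stretch without one is 141 bases, longer than a read. The window with the most differences, bases 73 to 192, holds 4, in capitals.

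MT-ATP6: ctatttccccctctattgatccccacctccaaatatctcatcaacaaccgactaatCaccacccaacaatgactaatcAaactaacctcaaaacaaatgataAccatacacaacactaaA

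MTATP6P1: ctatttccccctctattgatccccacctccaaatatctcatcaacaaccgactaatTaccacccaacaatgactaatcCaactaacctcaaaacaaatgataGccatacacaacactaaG

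MTND2P28 was 98.4% identical to MT-ND2 and MTCO1P12 was 98.7% identical to MT-CO1, with identical stretches of 266 and 245 bases. Their mean counts were 8436 and 2124. Reads came in pairs, and a pair that lies wholly within such a stretch cannot be assigned to a single source. The quantifier divides such pairs between the rows, so the levels of MT-ATP6, MT-ND2 and MT-CO1 are uncertain to that extent.

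The transfer RNAs, last, are shorter than a read. Their lengths run from 59 to 75 bases, as in these 2, the one with the most counts and one with none.

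MT-TA, minus strand: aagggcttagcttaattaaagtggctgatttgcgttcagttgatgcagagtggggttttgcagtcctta

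MT-TL1, plus strand: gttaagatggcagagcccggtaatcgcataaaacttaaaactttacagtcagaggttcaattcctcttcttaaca

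The 22 transfer RNA rows together held 30 counts over all 30 libraries. Of these, 13 fell on MT-TA, which carries alanine, and 7 on MT-TQ, which carries glutamine. Of the 8 minus-strand genes 6 had a count (28 in all), against 2 of the 14 plus-strand genes (2 counts in all). No count was assigned to MT-TF, MT-TL1, MT-TI, MT-TW, MT-TC, MT-TD, MT-TK, MT-TG, MT-TR, MT-TH, MT-TS2, MT-TL2, MT-TT or MT-TP. A row at 0 in a library allows up to 3 counts, or 0.0853 to 0.125 CPM depending on depth, by counting error alone. These rows describe what the libraries captured and give no measure of transfer RNA abundance.

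Between 15.0% and 20.0% of all counts in a library came from the 37 genes (median 17.4%). Ribosomal RNA made up 18.4% to 21.1% of the mitochondrial counts. Among the mRNAs, the 3 complex IV genes took a median of 52.5%, the 7 complex I genes 33.8%, MT-CYB of complex III 7.00% and the 2 complex V genes 6.59%. These proportions moved little between libraries: complex IV ranged from 50.5% to 54.6%.

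**Figure D1:**
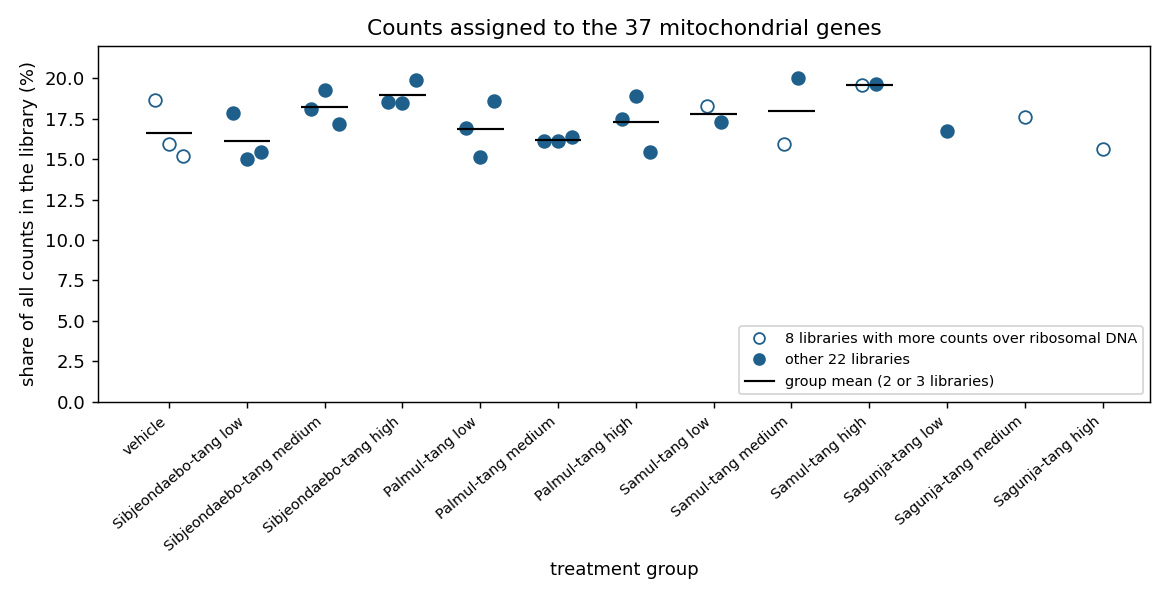
Share of all counts (%) held by the 37 mitochondrial genes in each library, by treatment group. Points are libraries, open for the 8 with more counts over ribosomal DNA, and lines are means of groups with 2 or 3 libraries. Sibjeondaebo-tang at the high dose lies between 18.5% and 19.9%, above its low dose at 15.0% to 17.9%, and the 2 Samul-tang libraries at the high dose both lie at 19.6%.

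Per kilobase of gene, levels spanned from MT-CO3, a complex IV core subunit, at a median of 30.5 kCPM per kilobase (1 kCPM is 1000 CPM), to MT-ND6, the only mRNA of the minus strand, at 1.25. MT-CO1, the catalytic subunit of complex IV, followed MT-CO3 at 24.2, and MT-RNR2, the large ribosomal RNA, was next at 20.6. MT-CO3 exceeded MT-CO1 in 30 of 30 libraries, and MT-RNR2 exceeded MT-CO2 (16.9), the subunit that accepts electrons from cytochrome c, in 29 of 30.

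Below them came MT-ND4 at 12.4 and MT-ATP6, the proton-channel subunit of ATP synthase, at 12.3 kCPM per kilobase. These 2 could not be ordered, since MT-ND4 was the higher in only 11 of 30 libraries. MT-ND1 stood at 10.3, MT-ND3 at 8.65, MT-CYB at 8.52 and MT-ND2 at 7.74. MT-ND3 exceeded MT-CYB in 21 of 30 libraries, and MT-CYB exceeded MT-ND2 in 21 of 30, so the order within this trio varied.

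MT-ND4L followed at 5.74. MT-ND4L and MT-ATP8 are the shortest of the 15 genes, at 297 and 207 bases, and each overlaps its neighbour as printed above. How length and overlap bear on their levels per kilobase was not tested. MT-ATP8 (3.10), MT-ND5 (2.98) and the small ribosomal RNA MT-RNR1 (2.88) formed a close group: MT-ATP8 exceeded MT-ND5 in 16 of 30 libraries and MT-ND5 exceeded MT-RNR1 in 19 of 30. MT-RNR1 exceeded MT-ND6 in all 30, without overlap. The counts of the 2 ribosomal RNAs, which belong to the 2 subunits of the mitochondrial ribosome, therefore differed widely in these libraries. Before division by length, medians were 32075 CPM for MT-RNR2 and 2744 CPM for MT-RNR1. The libraries were made for mRNA, and how well they captured each ribosomal RNA was not tested.

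**Figure D2:**
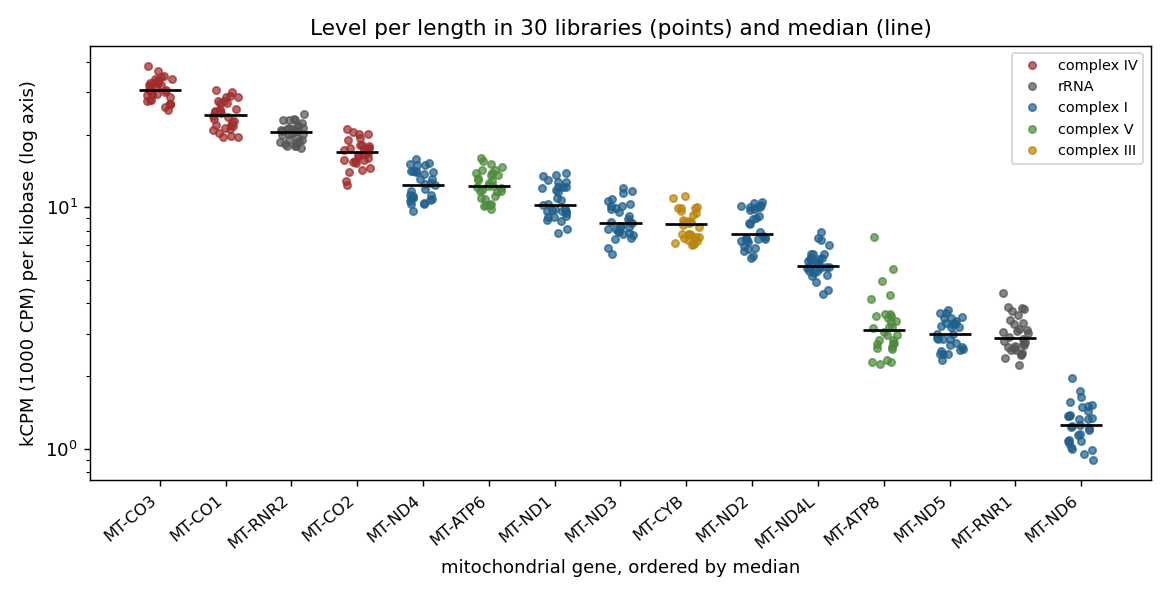
Level of each of the 15 mitochondrial genes per kilobase of gene (kCPM per kilobase, log axis) in 30 libraries, with the median as a line and colour by respiratory complex or rRNA. The 3 complex IV genes and MT-RNR2 hold the top 4 places, from 30.5 down to 16.9, and MT-ND6 is lowest at 1.25.

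Replicate libraries differed more in mitochondrial RNA than in other abundant RNA. The SD of log2 level between replicates had a median of 0.18 over the 15 genes, 0.11 over 17686 nuclear genes tested and 0.06 over the 79 nuclear genes with at least 1000 CPM on average. MT-RNR2 had the smallest SD (0.10), MT-ND6 had 0.27 and MT-ATP8 the largest (0.30). The deviations ran in parallel: the first principal component of deviations from the group means held 75.5% of their variance, with all 15 genes loading in one direction.

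Of the 27 libraries in groups of 2 or 3, 7 had all 15 genes on one side of the group mean and 15 had at least 13. Vehicle replicate 1 lay above its group mean for all 15 genes, by 0.12 to 0.63 in log2, while vehicle replicate 3 lay below for all 15. Palmul-tang high replicate 2 and Sibjeondaebo-tang high replicate 3 were also above for all 15. Palmul-tang low replicate 2, Sibjeondaebo-tang low replicate 2 and Sibjeondaebo-tang high replicate 2 were below for all 15. The 15 genes are therefore not 15 independent readings of a treatment: a library that is high for one tended to be high for most.

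**Figure D3:**
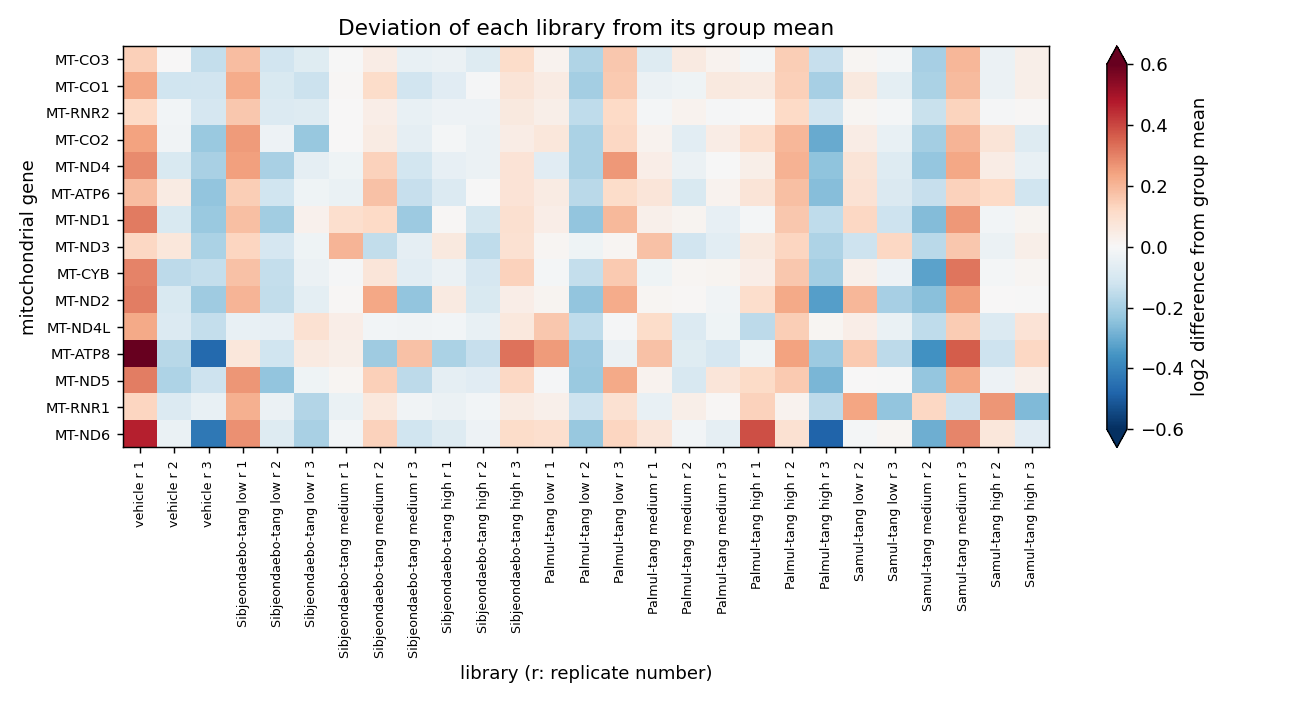
Log2 difference of each library from the mean of its group, for the 15 mitochondrial genes (rows) in the 27 libraries of groups with 2 or 3 replicates (columns). Columns tend to be of a single colour, as in vehicle replicate 1, where all 15 genes lie above the mean by 0.12 to 0.63.

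The effect of dose within a formula was asked first, as high minus low dose. Mitochondrial RNA was higher at the high dose of Sibjeondaebo-tang: 10 of the 15 genes rose and none fell, by 0.30 to 0.52 in log2. In this comparison 38.4% of all 17701 genes tested were called, 18.5% higher and 19.9% lower (edgeR's quasi-likelihood test, Benjamini-Hochberg adjusted p under 0.05). The genes were not alone among abundant RNAs, since 73.4% of the 79 abundant nuclear genes were also called higher, with a median change of 0.22 in log2. The median over the 15 mitochondrial genes was 0.40, and over all genes tested -0.01. These changes use library sizes multiplied by TMM scaling factors. The factors were 0.923 to 0.936 at the high dose and 1.00 to 1.05 at the low dose. Each change is therefore larger in the upward direction than it would be without scaling. Without scaling, mitochondrial genes held a mean of 19.0% of counts at the high dose and 16.1% at the low dose.

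Of the complex I genes, which encode membrane subunits of NADH dehydrogenase, 4 of 7 rose. MT-ND2 stood at 8.21, 6.42 and 6.85 kCPM in the 3 low-dose libraries, at 9.31, 10.9 and 7.87 at the medium dose, and at 10.6, 9.62 and 10.5 at the high dose. Every high-dose library was above every low-dose library, and the medium dose spanned both. The change from low to high was 0.52 ± 0.18 (SE) in log2, with an edgeR adjusted p of 0.0291.

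MT-ND3 stood at 3.01, 2.56 and 2.70 kCPM at the low dose, 3.97, 3.11 and 3.32 at the medium dose, and 4.06, 3.50 and 4.16 at the high dose. Low-dose libraries were below all others. The change from low to high was 0.50 ± 0.12 (SE) in log2, with an edgeR adjusted p of 0.00271.

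MT-ND4L stood at 1.67, 1.67 and 1.84 kCPM at the low dose, 1.90, 1.83 and 1.82 at the medium dose, and 2.23, 2.18 and 2.35 at the high dose. The high dose was clear of both other doses, and the change from low was 0.39 ± 0.10 (SE), edgeR adjusted p 0.00546. MT-ND1 rose by 0.48 ± 0.16 (SE), edgeR adjusted p 0.0221. MT-ND4, MT-ND5 and MT-ND6 were not called, with changes of 0.38, 0.32 and 0.29 and edgeR adjusted p-values of 0.0599, 0.135 and 0.327. MT-ND6 was the only one of the 15 whose low- and high-dose libraries overlapped. Over all genes tested, libraries did not overlap in 47.4%, with 22.7% higher at the high dose.

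All 3 complex IV genes rose. MT-CO1 stood at 38.8, 31.2 and 30.4 kCPM at the low dose and at 42.7, 44.6 and 47.2 at the high dose, a change of 0.42 ± 0.13 (SE), edgeR adjusted p 0.0130. The groups did not overlap, though the first low-dose library was close to the lowest high-dose one. MT-CO2 rose by 0.41 ± 0.14 and MT-CO3 by 0.34 ± 0.11 (SE), with edgeR adjusted p-values of 0.0311 and 0.0171.

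MT-CYB, the mitochondrial subunit of complex III, rose by 0.40 ± 0.15 (SE), edgeR adjusted p 0.0385. Of the complex V genes, MT-ATP6 rose by 0.41 ± 0.13 (SE), edgeR adjusted p 0.0179. MT-ATP8, a small membrane subunit of ATP synthase, had the widest error of the 15: its log2 change was 0.50 ± 0.25 (SE), edgeR adjusted p 0.122.

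The large ribosomal RNA MT-RNR2 stood at 33.1, 27.9 and 28.1 kCPM at the low dose, 33.4, 34.3 and 32.4 at the medium dose, and 35.8, 35.8 and 38.1 at the high dose. The high dose was above every other Sibjeondaebo-tang library, and the change from low was 0.30 ± 0.08 (SE), edgeR adjusted p 0.00264. MT-RNR1 stood at 2.78, 2.34 and 2.12 kCPM at the low dose and 2.96, 2.99 and 3.14 at the high dose. These did not overlap, and the change of 0.33 ± 0.13 (SE) was not called (edgeR adjusted p 0.0635).

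The count of 10 rested on few libraries. It was 3 without Sibjeondaebo-tang low replicate 2, 4 without low replicate 3 and 5 without high replicate 3. The share of all genes called in each of these fits is not given here, so a fall particular to these genes is not shown. MT-ND3, MT-ND4L and MT-RNR2 were called each time 1 of the 6 libraries was left out. Low replicates 2 and 3 gave the lower readings for most of the genes named here. At the high dose, the share of counts in long non-coding RNA was also lower (0.743% to 0.778%, against 0.863% to 0.989% at the low dose), and rows over ribosomal DNA were at 1165 to 1423 CPM against 818 to 1166. Of the leukocyte markers CD68 rose by 0.60 and CD14 differed by -0.12, with the list summing to 22.2 to 25.4 CPM at the high and 15.4 to 19.7 CPM at the low dose, and of the epithelial markers 3 rose and 1 fell. Whether these differences play a part was not tested.

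**Figure D4:**
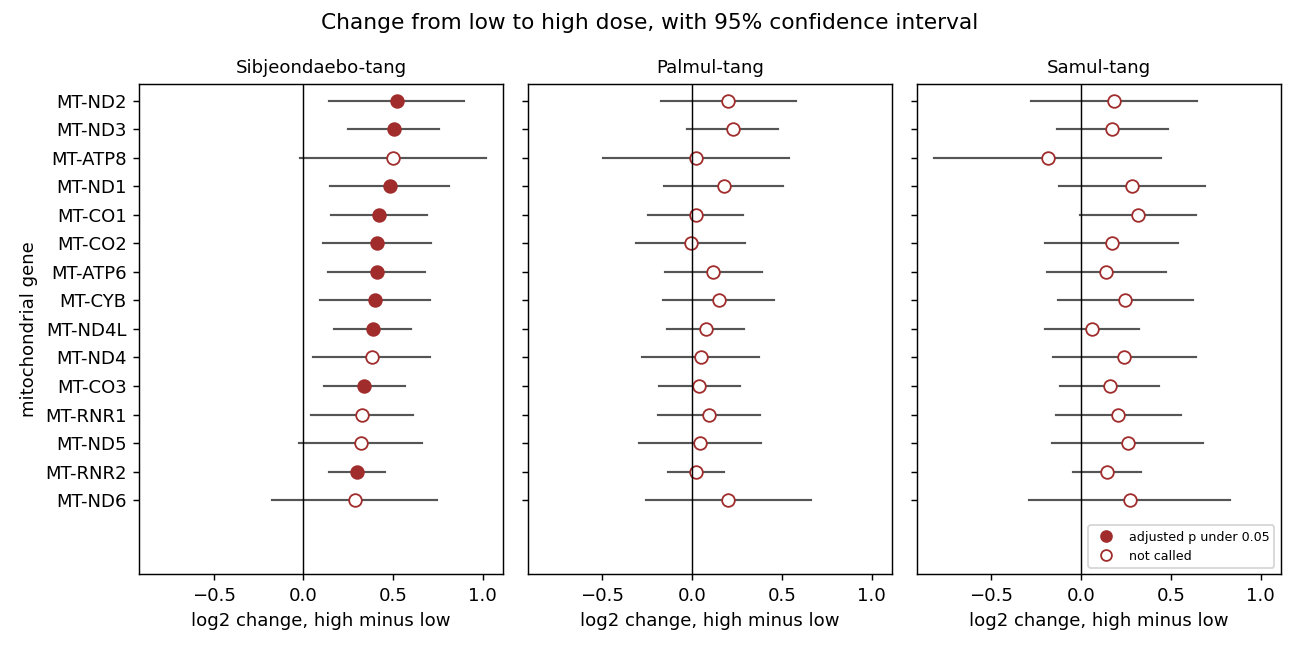
Log2 change from low to high dose for the 15 mitochondrial genes in 3 formulas, with 95% confidence intervals from the edgeR fit. Filled points have an adjusted p under 0.05: there are 10 for Sibjeondaebo-tang and 0 for Palmul-tang and Samul-tang.

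For Palmul-tang, 0 of the 15 genes were called between high and low dose, where 3.47% of all genes tested were called, 1.46% higher and 2.02% lower (edgeR, adjusted p under 0.05). None had an unadjusted p under 0.05, and DESeq2 called 0 as well. The median change was 0.07 in log2. MT-CO1 stood at 38.6, 32.4 and 41.7 kCPM at the low dose and at 39.4, 41.9 and 33.0 at the high dose. The doses interleaved. The 95% interval of the MT-CO1 change ran from -0.24 to 0.28, and that of MT-RNR2 from -0.14 to 0.17. Over all genes tested the doses did not overlap in 17.5%, with 8.50% higher at the high dose. MT-ND3 was the only one of the 15 whose doses did not overlap (2.82, 2.75 and 2.83 kCPM at the low dose, 3.39, 3.56 and 2.86 at the high dose), with a change of 0.23 ± 0.12 (SE) and an edgeR adjusted p of 0.424.

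For Samul-tang, with 2 libraries per dose, 0 of the 15 genes were called between high and low dose, where 1.34% of all genes tested were called, 0.604% higher and 0.740% lower (edgeR, adjusted p under 0.05). None had an unadjusted p under 0.05, and DESeq2 called 0. In 10 genes both high-dose libraries lay above both low-dose libraries, as in 22.5% of all genes tested (45.0% did not overlap in either direction), and the median change was 0.18. The 15 genes move together between libraries, so the 10 are not separate readings. MT-CO1 stood at 37.8 and 34.9 kCPM at the low dose and at 44.1 and 46.4 at the high dose, with a change of 0.32 (95% interval from -0.01 to 0.64). A fit on these 4 libraries alone called 5 genes higher, MT-CO1, MT-CYB, MT-ND4, MT-ND5 and MT-ND6. The 1.34% belongs to the fit on all 30 libraries, and the share for the smaller fit is not given here. What made the difference between the fits was not tested.

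The difference between the dose changes of Sibjeondaebo-tang and Palmul-tang was tested directly. It was above 0 for all 15 genes, with a median of 0.30 in log2, and 0 of 15 passed (edgeR, adjusted p under 0.05), where 14.9% of all genes tested did, 5.59% higher and 9.29% lower. At an unadjusted p under 0.05 there were 3: MT-RNR2 (0.28), MT-CO1 (0.40) and MT-ND4L (0.31). DESeq2 called 0. The intervals remained wide, as for MT-CO2 (from -0.01 to 0.85), so these libraries do not show that the formulas differ in this response, nor that they act alike.

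Medium minus low dose gave 0 called genes of 15 in each of Sibjeondaebo-tang, Palmul-tang and Samul-tang (edgeR, adjusted p under 0.05). Few genes of any kind were called: 0.0113%, 0.00565% and 0.00% of those tested. For Sibjeondaebo-tang all 15 changes were above 0, with a median of 0.22, and 3 had an unadjusted p under 0.05: MT-ND3 (0.33), MT-ND2 (0.39) and MT-RNR2 (0.17). For Palmul-tang 2 of 15 were above 0 and for Samul-tang 11, with no unadjusted p under 0.05 in either. DESeq2 called 0 in all 3.

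Compared at the same high dose, Sibjeondaebo-tang exceeded Palmul-tang in 2 of 15 genes, where 30.3% of all genes tested were called and 14.3% were higher (edgeR, adjusted p under 0.05). MT-ND4L stood at 2.23, 2.18 and 2.35 kCPM in Sibjeondaebo-tang and at 1.54, 1.90 and 1.72 in Palmul-tang, without overlap. The difference was 0.39 ± 0.10 (SE), with an edgeR adjusted p of 0.00681. MT-RNR2 stood at 35.8, 35.8 and 38.1 against 31.0, 33.7 and 28.6 kCPM, also without overlap, with a difference of 0.23 ± 0.08 (SE) and an edgeR adjusted p of 0.0213. MT-ND4L was called without any 1 of the 6 libraries. MT-RNR2 was lost without Palmul-tang high replicate 1 or 3 or Sibjeondaebo-tang high replicate 3. All 15 differences were above 0, and 8 genes did not overlap, against 40.9% of all genes tested (19.1% higher in Sibjeondaebo-tang). A fit on these 6 libraries alone called 6, and its share over all genes is not given here.

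Against vehicle, the direction differed between genes. At the high dose of Sibjeondaebo-tang 5 of 15 genes were called, all higher, where 41.8% of all genes tested were called and 20.0% were higher (edgeR, adjusted p under 0.05). MT-ND4L was 0.64 ± 0.10 (SE) above vehicle, with an edgeR adjusted p of 4.55e-05. Its vehicle libraries stood at 1.68, 1.36 and 1.30 kCPM, all below the high-dose libraries. MT-ND3 was 0.62 ± 0.12 (SE) above vehicle, edgeR adjusted p 0.00041, with vehicle at 2.76, 2.66 and 2.22 kCPM. MT-CO1 (0.45), MT-ATP6 (0.34) and MT-RNR2 (0.28) were the other 3. The MT-ATP6 call was kept in only 2 of the 6 fits that left out 1 of the libraries compared. MT-ND4L, MT-ND3, MT-CO1 and MT-RNR2 were called in all 6.

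At the high dose of Samul-tang 4 of 15 were called, all higher: MT-ND3 (0.49), MT-CO1 (0.46), MT-ND4L (0.31) and MT-RNR2 (0.26). The share over all genes tested was 29.2%, with 15.3% higher (edgeR, adjusted p under 0.05). The count fell to 0 without Samul-tang high replicate 3, to 1 without Samul-tang high replicate 2 or vehicle replicate 2, and to 2 without vehicle replicate 3. At the high dose of Palmul-tang MT-ND3 was higher (0.36 ± 0.12, edgeR adjusted p 0.0245) and MT-ATP8 lower, 2 of 15 against 37.1% of all genes tested (19.0% higher, 18.1% lower). That MT-ND3 call was kept in 3 of the 6 fits that left out 1 of the libraries compared. At the low dose of Samul-tang 0 of 15 were called, against 30.7% of all genes tested. There 2 had an unadjusted p under 0.05, and DESeq2 called 1.

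MT-ATP8 was lower than in vehicle in 3 comparisons. Vehicle stood at 1.56, 0.898 and 0.731 kCPM, Palmul-tang at the high dose at 0.549, 0.660 and 0.480, and its low dose at 0.655, 0.472 and 0.537. Sibjeondaebo-tang at the low dose stood at 0.615, 0.540 and 0.610. None of these overlapped with vehicle, in which replicate 1 was far above the other two. The differences were -0.92 ± 0.25, -0.94 ± 0.25 and -0.86 ± 0.25 (SE), with edgeR adjusted p-values of 0.00687, 0.00603 and 0.0108.

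Without vehicle replicate 1 none of the 3 MT-ATP8 differences was called (highest edgeR adjusted p 0.120). MT-ATP8 shares reads with MT-ATP6 over the overlap printed above, and its counts per 100 counts of MT-ATP6 were 17.4, 11.0 and 10.9 in vehicle. They were 6.24 to 6.99 in Palmul-tang at the high dose and 7.34 to 8.23 in Sibjeondaebo-tang at the low dose. The highest value outside vehicle was 11.8, in Samul-tang medium replicate 3.

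MT-RNR1 was lower than vehicle at the low doses of Sibjeondaebo-tang (-0.48 ± 0.13) and Palmul-tang (-0.44 ± 0.13, SE), with edgeR adjusted p-values of 0.00868 and 0.0154. Together with MT-ATP8 these made 2 of 15 called in each comparison, against 36.9% (18.2% lower) and 36.0% (18.2% higher, 17.8% lower) of all genes tested. Vehicle stood at 3.68, 3.17 and 3.26 kCPM. Sibjeondaebo-tang at the low dose stood at 2.78, 2.34 and 2.12, and Palmul-tang at 2.53, 2.28 and 2.64.

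Vehicle and these low-dose groups also lie in different library sets, and MT-RNR1 differed between the sets. MT-RNR1 stood at 3174 to 4225 CPM in the 8 libraries with more counts over ribosomal DNA and at 2123 to 3137 CPM in the other 22. It was the only one of the 15 genes that did not overlap between the sets. Of all 17701 genes tested 11 did not overlap, MT-RNR1 included. That count did not leave out the rows over ribosomal DNA, whose sum defined the sets, so any of them among the 11 differ by construction. The nuclear RNAs RMRP, RPPH1 and MALAT1 were among the 11, with medians of 1.48, 2.38 and 747 CPM in the 8. Their medians in the 22 were 0.429, 0.889 and 539 CPM. Per 100 counts of MT-RNR2, MT-RNR1 gave 10.7 to 12.4 counts in the 8 and 7.55 to 9.35 in the 22. Samul-tang shows this within a formula: at the high dose MT-RNR1 was 4.23 kCPM in replicate 2, of the 8, and 2.93 in replicate 3, of the 22. At its low dose it was 3.61 and 2.59.

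With a term for the set in the model, the MT-RNR1 differences from vehicle became -0.06 (edgeR adjusted p 0.786) for Sibjeondaebo-tang and -0.02 (edgeR adjusted p 0.933) for Palmul-tang. Only MT-ND4L in Sibjeondaebo-tang at the high dose, MT-ND3 in Samul-tang at the high dose and MT-ATP8 in the 3 comparisons above were still called against vehicle. The set term itself was called for 0 of the 15 genes, and for only 5 of all 17701 genes tested. For MT-RNR1 it was 0.42 (edgeR adjusted p 0.2). This term is estimated from the 6 Samul-tang libraries alone, and for the other formulas vehicle and set cannot otherwise be told apart.

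**Figure D5:**
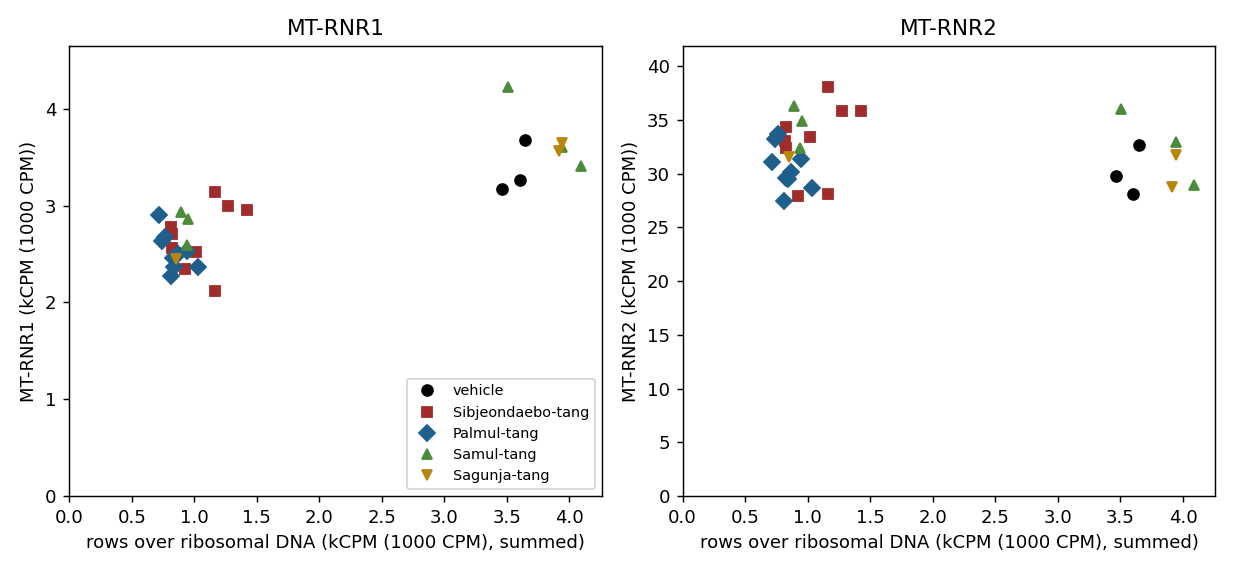
Level of the small (MT-RNR1) and large (MT-RNR2) mitochondrial ribosomal RNA (kCPM) against the summed rows over ribosomal DNA (kCPM), 1 point per library, coloured by formula. The 8 libraries on the right, at 3464 to 4091 CPM over ribosomal DNA, hold all the MT-RNR1 values from 3174 CPM upward, and MT-RNR2 overlaps between the sets.

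Sagunja-tang, at 1 library per dose, gave values without a test. MT-CO1 stood at 36.9, 35.0 and 32.7 kCPM at the low, medium and high dose, and MT-RNR2 at 31.5, 31.8 and 28.7. High minus low dose was above 0 in 3 of 15 genes, with a median of -0.09 and a range from -0.29 (MT-ND3) to 0.54 (MT-RNR1). The MT-RNR1 values, 2.45 at the low, 3.65 at the medium and 3.57 kCPM at the high dose, cross the library sets, since only the low-dose library is among the 22.

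The nuclear copies did not all follow their mitochondrial counterparts. From low to high dose of Sibjeondaebo-tang MTND2P28 rose by 0.44 and MTCO1P12 by 0.53 (edgeR adjusted p 0.0312 and 0.0054), while MTATP6P1 changed by 0.34 without passing (0.287). MTCO1P12 was at 107, 101 and 105 CPM in vehicle and at 46.3, 59.8 and 59.6 in Palmul-tang at the high dose, a log2 difference of -0.92 (edgeR adjusted p 5.13e-05), while that of MT-CO1 was 0.21 (edgeR adjusted p 0.212). Vehicle and Palmul-tang lie in different library sets, whose part in this was not tested. Adding each copy's counts to its mitochondrial gene left the Sibjeondaebo-tang dose count at 10.

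Nuclear genes that work with mitochondrial DNA were described by lists. From low to high dose of Sibjeondaebo-tang, 44 of 74 nuclear subunits of complexes I, III, IV and V rose and 0 fell, with a median change of 0.20 in log2. Over all genes tested 18.5% were called higher. Of the 79 abundant nuclear genes 73.4% were, with a median change of 0.22, so the subunits did not exceed them. COX5A of complex IV rose by 0.32, CYC1 (cytochrome c1 of complex III) by 0.28, NDUFA6 of complex I by 0.25 and ATP5MG of ATP synthase by 0.25. In Palmul-tang and in Samul-tang 0 of 74 passed between high and low dose, where 3.47% and 1.34% of all genes tested were called. Of the 4 subunits of complex II, which has no mitochondrially encoded part, SDHB (0.23), SDHD (0.19) and SDHC (0.10) rose.

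Of 78 proteins of the mitochondrial ribosome, 49 rose and 2 fell in the same comparison, with a median of 0.20. Over all genes tested 18.5% were called higher and 19.9% lower, and of the 79 abundant nuclear genes 73.4% were called higher. MRPL28 and MRPS34 rose by 0.35 and 0.36, and MRPS25 fell by 0.42 on the log2 scale. In Palmul-tang 1 rose and in Samul-tang 0, with none falling, where 1.46% and 0.604% of all genes tested were called higher. Among 17 mitochondrial aminoacyl-tRNA synthetases, which load transfer RNAs with amino acids, 4 rose and 0 fell, among them LARS2 and YARS2 (both 0.24), a share near the 18.5% of all genes called higher. Among 12 chaperones and proteases of mitochondrial protein quality control 6 rose and 1 fell, including LONP1 (0.28), HSPD1 (0.18) and SPG7 (-0.18).

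The counts of the next 5 lists stand beside 18.5% of all genes tested called higher and 19.9% called lower. Of 8 genes of mitochondrial transcription, the polymerase POLRMT (0.24) and the packaging and initiation factor TFAM (0.20) rose, while MTERF2 (-0.62), MTERF4 (-0.26) and MTERF1 (-0.22), of the family named for transcription termination, fell. MTERF1 is named after its value was seen. Of 19 genes of mitochondrial RNA processing 4 rose and 3 fell, among them TBRG4 (0.22), HSD17B10 and TRMT10C (both 0.23; subunits of the enzyme that cuts the 5′ end of mitochondrial transfer RNAs) and TRNT1 (-0.23), which adds the CCA end of transfer RNAs. Of 7 genes of mitochondrial RNA stability only SLIRP rose (0.33), and its partner LRPPRC differed by 0.07 (edgeR adjusted p 0.152).

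Of 13 genes of mitochondrial DNA replication 2 rose and 1 fell: SSBP1, the single-strand binding protein, by 0.28, DGUOK, a mitochondrial nucleoside kinase, by 0.16, and POLG2, the accessory subunit of the DNA polymerase, by -0.49. Of 8 regulators of mitochondrial biogenesis NRF1 rose by 0.25 and the coactivator PPARGC1A, at 1.24 against 1.79 CPM, fell by 0.54 on the log2 scale. These lists were chosen with earlier results of the same libraries known, so their counts describe the samples and are not independent evidence.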

How the data were processed

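RNA of A549 cells was made into strand-specific mRNA libraries and read as 100-base pairs, per the labels. Per the submitters' processing notes the tools were FastQC 0.11.9, Trim Galore 0.6.5, STAR 2.7.3a and RSEM 1.3.3, with GRCh38. The annotation release and the strand setting are not given in the sources used here. The authors deposited RSEM expected counts for genes, which need not be whole because it apportions reads with more than 1 source. They were rounded. The 240 columns of other samples in the table were not used.

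Of all rows, 17701 passed filterByExpr by group. After TMM scaling, 1 edgeR 4.0.16 quasi-likelihood model (R 4.3.3, robust glmQLFit, then glmQLFTest) gave a mean to each of 13 groups, leaving 17 residual degrees of freedom over 30 libraries. Benjamini-Hochberg adjustment ran over the 17701 genes within each comparison, and calls needed an adjusted p under 0.05. An SE is the size of the log2 change over the root of F. CPM use TMM-scaled library sizes, and mitochondrial shares use unscaled counts. The script was tested on simulated data. Alternatives included DESeq2 1.42.0, other scalings, no filter, a replicate block, fewer groups and leaving out each library. Positions come from GENCODE 29, which holds 57055 of the 60675 identifiers. Symbols come from a separate list of gene names, in which 56558 identifiers had a symbol.

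All 13 mRNAs and 2 ribosomal RNAs are named, and from each nuclear list up to 4 genes with the smallest adjusted p. The members, the 18 lists and the comparisons were chosen with earlier results of these data known. The 2 sets of libraries were found in the data, by their counts over ribosomal DNA. The fit with a term for them, and the fit with nuclear copies added, were chosen after seeing the data.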

Additional observations from a re-analysis of the deposited data

Results flagged for a closer look

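The dose change from low to high differed between Sibjeondaebo-tang and Palmul-tang for the nuclear copy MTCO1P12, by 0.69 ± 0.20 (SE) in log2 in a direct test of the difference (edgeR adjusted p 0.0227). The same test was passed by 9 of 74 nuclear respiratory subunits and 13 of 78 mitochondrial ribosomal proteins with a larger increase in Sibjeondaebo-tang, by 1 ribosomal protein in the other direction, and by 0 of the 15 mitochondrial genes. Over all genes tested 14.9% passed, 5.59% with the larger value in Sibjeondaebo-tang and 9.29% with the smaller.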

How the results depend on the processing

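Of 112 recomputed counts of called genes, 98 stayed within 1.5 times the value reported, 8 were lower and 6 higher. The 98 include counts of 0 that stayed at 0, which say little about stability. None of the called genes changed sign in any alternative. RLE size factors and scaling by nuclear genes alone left all 27 single-gene calls in place, as did DESeq2. Of the 27, 6 were lost without the filter and 3 when only the groups compared were fitted. The set term lost 10 and adding the nuclear copies lost 1. The median of all genes moved by less than 0.1 in log2. Without a filter on low counts, Palmul-tang high against vehicle called 1 and Samul-tang high against vehicle 2. Fitting only the groups compared called 5 for Samul-tang high minus low, 6 for Sibjeondaebo-tang minus Palmul-tang at the high dose, 1 for Palmul-tang low against vehicle and 1 for Samul-tang low against vehicle, and ended the 3 MT-ATP8 calls against vehicle (edgeR adjusted p 0.119 to 0.129). DESeq2 called 4 for Palmul-tang high and 1 for Samul-tang low against vehicle. Shares of all genes called under these alternatives are not given here. With the set term, added later, the high doses of Sibjeondaebo-tang, Palmul-tang and Samul-tang and the low doses of Sibjeondaebo-tang and Palmul-tang against vehicle each called 1.

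Replicate numbers showed no clear pairing of the libraries. Deviations of the same number correlated with a median of 0.01 over 63 pairs (-0.10 to 0.09), and those of other numbers ranged from -0.15 to 0.11. Of 21 libraries 10 correlated best with their own number. These values cannot exclude a pairing. With the replicate number as a block, Samul-tang low against vehicle called 1 (MT-ND3), Sibjeondaebo-tang high minus low 11 and Palmul-tang high against vehicle 3, and all 27 calls were kept.

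Leaving out 1 library at a time gave 3 to 13 called genes for Sibjeondaebo-tang high minus low, 1 to 3 for Sibjeondaebo-tang minus Palmul-tang at the high dose, and 0 to 2 for the difference between dose changes. Against vehicle it gave 4 to 8 for Sibjeondaebo-tang high, 1 to 3 for Palmul-tang high, 0 to 5 for Samul-tang high, 1 to 3 for Sibjeondaebo-tang low, 1 to 2 for Palmul-tang low and 0 to 1 for Samul-tang low. Where a Samul-tang dose is left with 1 library, that library is assumed to vary like the other groups. Why these counts moved was not tested, and the shares of all genes called in these fits are not given here. For Sibjeondaebo-tang high minus low the median SE of a mitochondrial gene was 0.14 in log2, against 0.09 over all genes tested. The parts of depth and replicate spread in this were not tested.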
